A study of Mus musculus with 2 samples.

Results

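The miRNA genes described here are Mir135a-1, Mir135a-2, Mir135b, Mir34c, Mir137, Mir204, Mir217, Mir218-1, Mir218-2 and Mir338, which encode miRNAs reported to repress the transcription factor Runx2, together with the Mir135 paralog. They were taken by gene symbol, by a rule that uses no count, although earlier results of these data were known when the set was drawn up. All 10 are among the 1973 genes listed in the deposited count files. The tissue was limb of healthy mouse embryos of the strain B6NCrl at day 11.5, with no allele or treatment named, an age at which the limb is a bud and has not begun to form bone. Small RNA below 30 nt was sequenced in 2 libraries of 1 group. Replicate 1 was pooled from 109 embryos and replicate 2 from 88, in each case males and females together. Both libraries carry the same donor identifier and nothing in the labels says that it marks separate litters, so the spread between them is that of these 2 libraries and may be partly technical. The series holds no other age, tissue or treatment, and every value below is a level in this tissue or a ratio within it.

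Runx2 is the transcription factor that commits mesenchymal cells to the osteoblast lineage, and without it the skeleton stays cartilage. A miRNA is cut from a hairpin precursor and loaded into an Argonaute protein, where the bases of its seed pair with sites in the 3′ UTR of messenger RNAs, which are then translated less or degraded. Several unrelated miRNAs have been reported to pair with the Runx2 3′ UTR and to slow osteoblast differentiation when added to cultured cells. A gene in these files is a hairpin, so its 5p arm and its 3p arm are counted together.

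For 8 of the members, the arm most often loaded as the working strand is given first, because their seeds set which sites they can pair with. The sequences are the RefSeq mature entries on GRCm38.p6, written 5′ to 3′, with the seed (bases 2 to 8) in capitals. All 10 hairpins matched the RefSeq table, with 18 mature entries of 16 distinct sequences; miR-135b-5p and miR-34c-5p are not among these entries. The 5p entry of Mir135a-1 and Mir135a-2 is 1 sequence, and so is that of Mir218-1 and Mir218-2. MiR-211-5p, from a gene outside the set, is shown because it has the seed of miR-204-5p.
miR-135a-5p: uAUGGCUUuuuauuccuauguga
miR-137-3p: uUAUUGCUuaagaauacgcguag
miR-204-5p: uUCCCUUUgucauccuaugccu
miR-211-5p: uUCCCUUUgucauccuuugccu
miR-217-5p: uACUGCAUcaggaacugacugga
miR-218-5p: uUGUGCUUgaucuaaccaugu
miR-338-3p: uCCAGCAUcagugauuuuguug

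Among these sequences of members, no seed was shared between families. MiR-204-5p and miR-211-5p differ by 1 substitution, A17U, counted from the 5′ end of miR-204-5p, which lies outside the seed. The other arm is what tells apart the hairpins with the same 5p entry, Mir135a-1 from Mir135a-2 and Mir218-1 from Mir218-2. It is shown for these genes and, as an arm of an abundant member, for Mir135b and Mir34c.
miR-135a-1-3p: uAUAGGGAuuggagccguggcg
miR-135a-2-3p: uGUAGGGAuggaagccaugaa
miR-135b-3p: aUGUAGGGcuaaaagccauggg
miR-218-1-3p: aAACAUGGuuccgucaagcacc
miR-218-2-3p: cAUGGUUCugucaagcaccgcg
miR-34c-3p: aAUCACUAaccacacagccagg

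The members spanned close to 3 orders of magnitude in the limb bud, and 2 of them carried most of the counts. Levels are sense counts scaled to a common library total (CPM). Mir135b, at 1805 CPM in replicate 1 and 1619 CPM in replicate 2, and Mir34c, at 1425 and 1467 CPM, were the highest. Together these genes held 88.5% and 88.1% of all member counts. Mir137 followed at 202.5 and 218.5 CPM. Mir218-2, Mir204 and Mir338 lay between 51.2 and 73.5 CPM in both libraries, and the other 4 genes, Mir218-1, Mir135a-1, Mir217 and Mir135a-2, stayed below 10 CPM. Of the 10 members, 6 reached the detection level, set at 10 CPM in each library, against 15.0% of all listed genes.

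**Figure D1:**
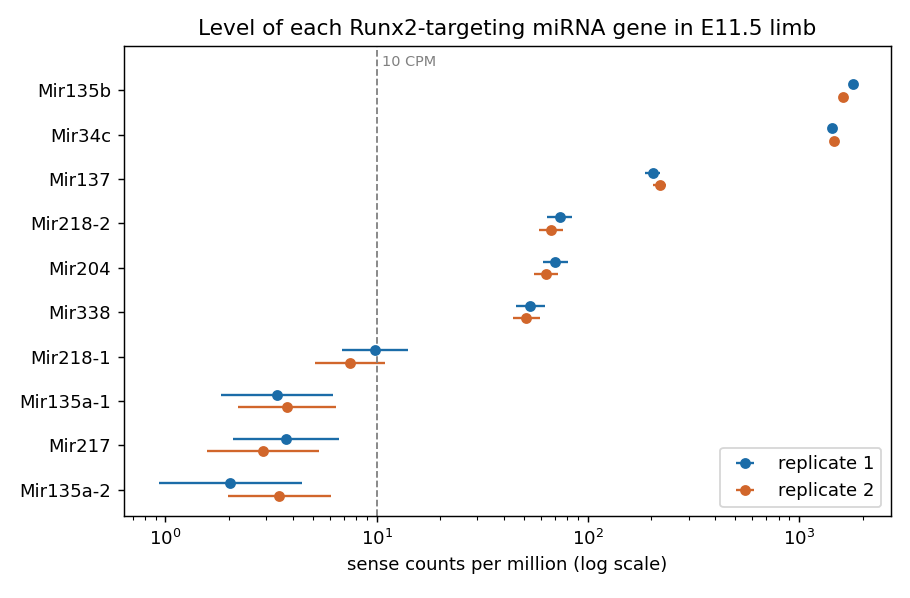
Level in CPM (log scale) of each member in replicate 1 and replicate 2, with Wilson 95% intervals that cover counting error only and a dashed line at the detection level of 10 CPM. Mir135b and Mir34c lie at 1425 CPM or more in both libraries, and Mir218-1, Mir135a-1, Mir217 and Mir135a-2 lie left of the line in both.

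In all, the members held 0.358% ± 0.010 of the sense counts (SD, n = 2). The share was 0.365% in replicate 1 and 0.350% in replicate 2. The median member level was 59.5 CPM. The median over all listed genes was 0, because 1267 of them had no sense count in either library, while the median over the 295 detected genes was 262.3 CPM. Mir135b and Mir34c stood above that median of detected genes and the other 8 members below it.

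Most steps in the order of levels were larger than the spread between the libraries. This is an order of counts, and whether different miRNAs were counted with equal efficiency was not tested. The counts of Mir218-1, Mir218-2, Mir135a-1 and Mir135a-2 are also uncertain, because their hairpins share 20 nt or more with a paralog. Mir135b ranked 78 of 1973 genes and Mir34c ranked 84. Their levels differed by 1.27-fold in replicate 1 and 1.10-fold in replicate 2, and neither the library values nor the Wilson 95% intervals overlapped. The step from Mir34c down to Mir137, at rank 155, was 7.04-fold and 6.71-fold, and that from Mir137 to Mir218-2 was 2.76-fold and 3.26-fold. Mir218-2, at rank 215, and Mir204, at rank 218, had overlapping library values and are not ordered by these data. Mir338, at rank 229, lay below Mir204 in both libraries, but their counting intervals overlapped in each. The step from Mir338 to Mir218-1, at rank 308, was 5.45-fold and 6.81-fold. Mir135a-1, Mir217 and Mir135a-2, at ranks 355, 362 and 375, had library values that overlapped from neighbour to neighbour and rest on 6 to 13 counts per library.

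The detected genes next to the members in rank show what such levels stand beside. Mir135b lay between Mir107, at a mean of 1735 CPM, and Mir301, at 1602 CPM. Mir34c lay between Mir200c, an epithelial miRNA, at 1458 CPM, and Mir674 at 1397 CPM. Mir137 lay between Mir329 at 215.8 CPM and Mir669o at 208.9 CPM. These neighbours share a level and nothing else was asked of them.

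**Figure D2:**
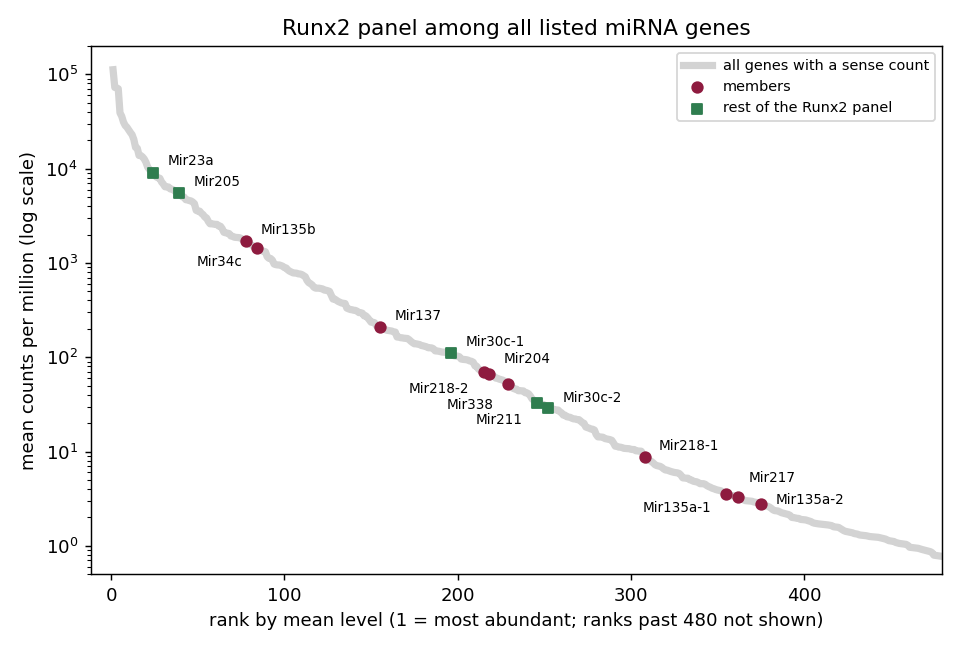
Mean CPM (log scale) against rank for the most abundant listed genes, with the members as circles and the other miRNA genes reported to repress Runx2 as squares. Mir23a and Mir205 lie above every member, and the members run from rank 78 to rank 375.

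The Mir135 family, whose miRNAs are reported to repress Smad5, a transducer of BMP signals to bone, as well as Runx2, was counted almost wholly at Mir135b. Mir135b had 5331 sense counts in replicate 1 and 5600 in replicate 2. Mir135a-1 had 10 and 13, or 3.39 and 3.76 CPM, and Mir135a-2 had 6 and 12, or 2.03 and 3.47 CPM. Mir135b thus held 99.6% ± 0.10 of the counts of the 3 hairpins (SD, n = 2). Its log2 ratio over Mir135a-1 was 8.84 ± 0.21, or 533-fold in replicate 1 and 431-fold in replicate 2, with exact 95% intervals of 290 to 1112 and 252 to 810. Mir135a-1 over Mir135a-2 had a log2 ratio of 0.40 ± 0.41, which is no larger than its spread.

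The ratio between Mir135b and the Mir135a genes carries a limit of the counting. Mir135a-1 and Mir135a-2 share a stretch of 24 nt, and the 5p arm lies wholly inside it. Reads that fit more than 1 place are in a line of their own in the files, with 24.7% of the reads of replicate 1 and 23.4% of those of replicate 2, and in no gene's count. The files do not say which genes those reads belong to, so the counts of both Mir135a genes are uncertain and may be too low. The longest stretch that Mir135b shares with another annotated miRNA hairpin is 14 nt, with Mir135a-1.

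Mir135b (ENSMUSG00000065435.1) lies at chr1:132198088-132198184 on the plus strand of mm10, in an intron of the protein-coding gene Lemd1. Mir135a-1 (ENSMUSG00000065407.1) is at chr9:106154124-106154213 on the plus strand, in an intron of the noncoding gene D030055H07Rik and opposite an exon of Glyctk. Mir135a-2 (ENSMUSG00000065524.1) is at chr10:92072086-92072185 on the minus strand, in an intron of Rmst, a long noncoding RNA gene. The 3 genes of the family thus have different hosts on different chromosomes.

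Mir34c belongs to a family that p53 induces and that, with the Mir449 genes, takes part in the making of multiciliated cells; in osteoblasts miR-34c is also known to act on Notch signalling. It had 4209 sense counts in replicate 1 and 5073 in replicate 2, or 1446 ± 29.2 CPM (SD, n = 2). Mir34b, 451 bp away and made from the same primary transcript, had 49.8 and 50.9 CPM. Mir34a, on its own locus, had 80.6 and 79.8 CPM. Mir34c was far above both in each library.

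The log2 ratio of Mir34c over Mir34b was 4.84 ± 0.01, with a counting error of 0.12 in replicate 1 and 0.11 in replicate 2, which is larger than the SD. The log2 ratio of Mir34c over Mir34a was 4.17 ± 0.04, with counting errors of 0.10 and 0.09. Mir449a had 38.9 and 30.9 CPM, and Mir449b and Mir449c had 1 count each in replicate 1 and none in replicate 2. Over these 6 hairpins, Mir34c held 89.7% ± 0.52 of the counts. The longest stretch between the Mir34c and Mir34b hairpins is 11 nt, and their 3p arms differ by 5 substitutions, counted from the 5′ end of miR-34c-3p: C11U, A12C, A16U, G21U and G22C. Mir34c (ENSMUSG00000065587.1) lies at chr9:51103034-51103110 on the minus strand, opposite an intron of Btg4.

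Mir204, whose miRNA is known to limit Runx2 in mesenchymal progenitor cells and is abundant in the retinal pigment epithelium, stood at 70.1 and 63.3 CPM in replicates 1 and 2, from 207 and 219 counts. Mir211, its paralog and a melanocyte and pigment epithelium miRNA, had 27.1 and 38.7 CPM. Mir204 was higher in both libraries, by 2.59-fold in replicate 1 and 1.63-fold in replicate 2, with exact 95% intervals of 1.99 to 3.39 and 1.31 to 2.04. The log2 ratio was 1.04 ± 0.47. Their hairpins share 17 nt. Mir204 (ENSMUSG00000065507.2) lies at chr19:22750605-22750672 on the plus strand, in an intron of the ion channel gene Trpm3.

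Both Mir218 genes lie in introns of Slit genes, which encode secreted guidance ligands, and their shared miRNA is known from motor neurons and from osteoblasts, where it acts on inhibitors of Wnt signalling. Mir218-1, in Slit2, had 29 and 26 counts, or 9.82 and 7.52 CPM. Mir218-2, in Slit3, had 217 and 232 counts, or 73.5 and 67.1 CPM. The log2 ratio of Mir218-1 over Mir218-2 was -3.01 ± 0.18, and Mir218-2 held 89.1% ± 1.21 of the counts of the pair (SD, n = 2). The libraries did not overlap between the genes.

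The same counting limit applies to this pair. The hairpins share 22 nt, and miR-218-5p lies wholly within them, so its reads may be missing from either gene. With the Mir135a genes, these are the 4 of 10 members whose hairpins share 20 nt or more with another annotated miRNA hairpin. Mir218-1 (ENSMUSG00000065603.1) is at chr5:48223942-48224051 and Mir218-2 (ENSMUSG00000065583.1) at chr11:35616816-35616925, both on the plus strand.

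**Figure D3:**
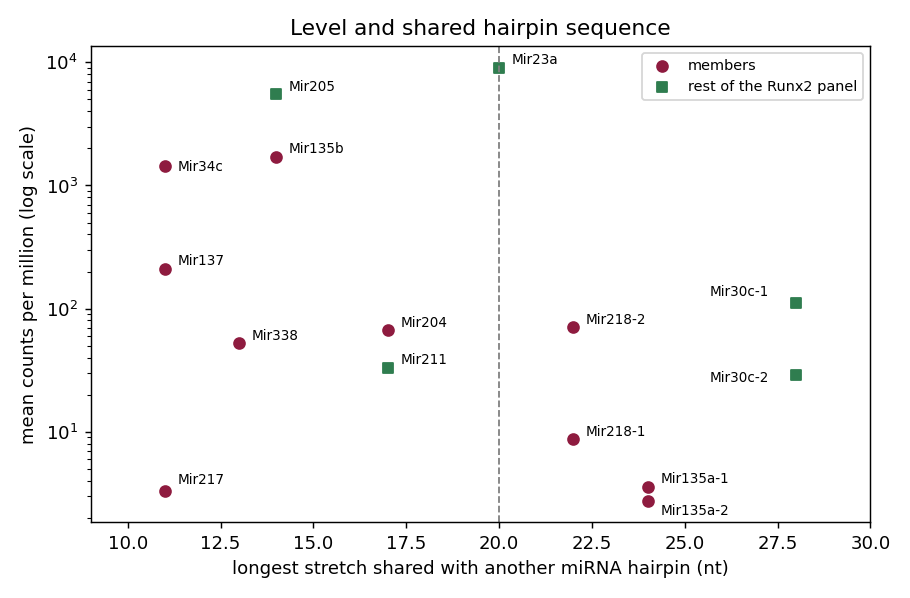
Mean CPM (log scale) against the longest stretch, in nt, that each hairpin shares with another annotated miRNA hairpin, for the members and for the other Runx2 panel genes with counts. The dashed line marks 20 nt; Mir218-1, Mir218-2, Mir135a-1 and Mir135a-2 are the members to its right.

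Mir137 and Mir338 are best known from the nervous system, where miR-137 acts in neuron differentiation and miR-338 in the maturation of oligodendrocytes. Mir137 had 598 and 756 counts, or 210.5 ± 11.3 CPM (SD, n = 2). Mir338 had 158 and 177 counts, or 52.3 ± 1.65 CPM. Mir137 exceeded Mir338 in both libraries. Among neural markers, Mir9-2, Mir124a-1, Mir124a-2 and Mir124a-3 were at 0 in both libraries, which allows up to 1.02 CPM in replicate 1 and 0.867 CPM in replicate 2 (3 counts of the total). Each of these hairpins shares between 32 and 33 nt with another annotated hairpin, so its reads may be in the multimapping line. Other genes of the same list were higher: Mir128-1 had 96.2 and 92.8 CPM, Mir132 49.4 and 44.2 CPM, and Mir128-2 21.3 and 22.3 CPM. The Mir128 hairpins share 23 nt, so their counts are uncertain. Below the detection level, Mir212 had 4.06 and 5.49 CPM and Mir9-3 had 2.03 and 2.31 CPM. The Mir9-3 hairpin shares 26 nt with another. The neural list as a whole, with 9 of 10 genes listed and Mir128-1, Mir132 and Mir128-2 detected, held 0.0173% and 0.0167% of the counts. Its part in the levels of Mir137 and Mir338 was not tested.

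Mir137 (ENSMUSG00000065569.1) lies at chr3:118433857-118433929 on the plus strand, in an exon of the noncoding gene Gm26871. Mir338 (ENSMUSG00000065600.1) lies at chr11:120014765-120014862 on the minus strand, in an intron of the kinase gene Aatk. Mir3065 is annotated on the opposite strand over 87 bp of the Mir338 hairpin and is not in the files' gene list, so its level was not analysed here. Opposite-strand counts at Mir338 were 1 in replicate 1 and 2 in replicate 2, and the other 9 members had none.

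Mir217, known as a miRNA of the pancreas, had 11 counts in replicate 1 and 10 in replicate 2, or 3.72 and 2.89 CPM. It lies with Mir216a and Mir216b on chromosome 11, at distances of 6644 and 17451 bp. Mir216a had 3 and 1 counts, and Mir216b had 5 and 3. The ratio of Mir217 over Mir216a was 3.67 in replicate 1 (exact 95% interval 0.969 to 20.5) and 10 in replicate 2 (1.42 to 434). That over Mir216b was 2.20 (0.705 to 8.08) and 3.33 (0.858 to 18.8), so no difference between Mir217 and Mir216b was detectable at this depth. All 3 genes were below the detection level. Mir217 (ENSMUSG00000065415.1) is at chr11:28763728-28763835 on the plus strand, in an intron of the noncoding gene Gm12082.

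The members differed between the libraries by a median absolute log2 ratio of 0.15, against 0.14 over all genes tested. For each of the 422 genes with at least 10 counts in all, the split of its counts between the libraries was set against their TMM-scaled sizes by an exact binomial test, two-sided, with Benjamini-Hochberg adjustment at 0.05. It called 1 of the 10 members, Mir135b, against 21.3% of all genes tested. Mir135b had a log2 ratio of -0.17 for replicate 2 over replicate 1, a difference of 1.13-fold, with an adjusted p of 9.96e-09 in this exact test. Under the other settings tried the adjusted p of Mir135b lay between 6.49e-09 and 1.00, the highest with an overdispersed test scaled by the mean squared deviation of all genes. The other 9 members had adjusted p from 0.495 to 1 in the exact binomial test, with log2 ratios from -0.40 for Mir218-1 to 0.70 for Mir135a-2. Mir34c, at 0.03, was the member that differed least. The test compares these libraries and no conditions, and a p that misses the threshold does not show that the levels were equal.

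**Figure D4:**
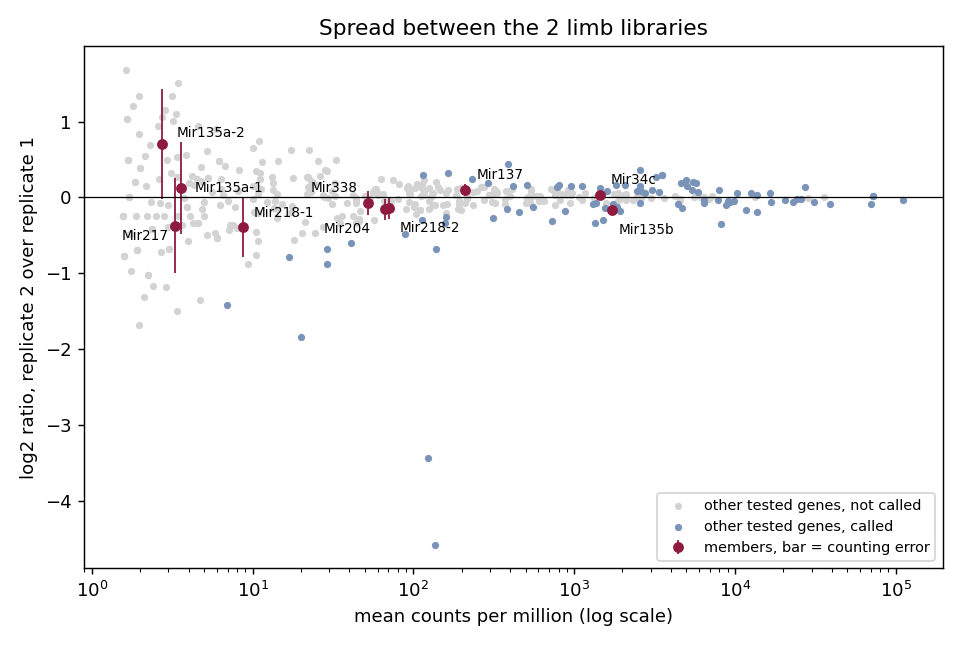
Log2 ratio of replicate 2 over replicate 1 against mean CPM (log scale) for the 422 genes tested, with the members in dark red and bars of 1 counting error. Mir135b, at -0.17, is the called member, and the members with the widest bars are those below 10 CPM.

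The other miRNA genes reported to repress Runx2 put these levels in proportion. Mir23a reached 9205 and 8962 CPM in replicates 1 and 2, and Mir205, an epithelial miRNA, 5122 and 5922 CPM. Both exceeded every member in both libraries. The hairpin of Mir23a shares 20 nt with that of Mir23b, so its count is uncertain. Mir30c-1 had 116.1 and 104.4 CPM and Mir30c-2 had 37.6 and 20.5 CPM; these hairpins share 28 nt and their counts are uncertain. Mir133a-1 and Mir133a-2, which encode a muscle miRNA, were at 0 in both libraries, below the limits of 1.02 and 0.867 CPM, and their hairpins share 31 nt, so their reads may be in the multimapping line. The 10 members held 0.358% ± 0.010 of the counts, against 1.48% ± 0.04 for these 7 genes with Mir211 among them (SD, n = 2). Of the 7 genes 5 were detected, and the exact binomial test called 3 of the 5 tested, Mir205 higher in replicate 2 and Mir23a and Mir30c-2 lower, against 21.3% of all 422 genes tested. Over all genes the calls were 90 in this test and 12 with the overdispersed test scaled by the mean squared deviation.

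MiRNAs reported to slow osteoblast differentiation through other targets were all detected, 15 of 15, and held 6.50% ± 0.004 of the counts (SD, n = 2). The median level was 59.5 CPM over the members and 197 CPM over this list, in which Mir214, a mesenchymal miRNA, and Mir93 were highest at means of 39072 and 13801 CPM. MiRNAs reported to promote osteoblast differentiation had 7 of 8 genes listed and 4 detected, with 7.31% ± 0.11 of the counts. Nearly all of that share was Mir322, at a mean of 72591 CPM, and Mir210 came next at 383 CPM. The median of the promoting list was 26.5 CPM. Hairpins that share 20 nt or more with another annotated hairpin were 4 of 10 among the members, 6 of 15 in the list of other repressors and 3 of 7 in the promoting list, so the medians rest in part on uncertain counts.

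Markers of several cell types were read beside the labelled tissue, limb. Markers of limb mesenchyme and cartilage, Mir10a, Mir10b, Mir196b, Mir214, Mir140 and Mir455, were detected 6 of 6 and held 17.7% ± 0.46 of the counts (SD, n = 2). Epithelial markers, with 4 of 4 detected, held 0.986% in replicate 1 and 1.16% in replicate 2, and the endothelial Mir126a held 2.43% and 2.41%. Skeletal muscle markers, Mir206 and Mir133b, held 0.0560% and 0.0576%, most of it Mir206. The Mir133b hairpin shares 21 nt with that of Mir133a-2, so its count is uncertain. Blood markers held 0.0626% and 0.0770%, and pancreas markers, nearly all of them Mir375, 0.0879% and 0.0905%. The list of retina and pigment epithelium held 0.270% and 0.301%, nearly all of it Mir183 and Mir96, with Mir211 at 27.1 and 38.7 CPM. The source of this share was not tested. Ciliated epithelium markers held 0.00396% and 0.00309%, nearly all of it Mir449a. In bulk tissue, fewer cells of a type and less RNA per cell cannot be told apart, and the part of these cell types in the member levels was not tested.

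The letters of the Runx2 3′ UTR were searched for the 7 bases that pair with each seed. The search covered the sense strand of the longest annotated 3′ UTR, 3904 nt long in GENCODE M21, on the minus strand of chromosome 17, and the 6 mature sequences of members listed first above. MiR-135b-5p and miR-34c-5p, from the most abundant members, were not among the mature entries, so no match was counted from their own sequences. Their seeds were not compared with those searched. For 5 of the 6 there was a match, 8 matches in all, 5 of them followed by an A, the base that favours repression opposite the first base of a miRNA. The matches are shown with 15 bases before and 1 after, in DNA letters of the transcript strand, with the 7 matching bases in capitals, in order from the stop codon.
miR-204-5p, chr17:44607490-44607512: atgtggtgcactcagAAAGGGAc
miR-137-3p, chr17:44606752-44606774: agctttgccttttaaAGCAATAa
miR-338-3p, chr17:44606663-44606685: ctttactagcatgaaATGCTGGa
miR-218-5p, chr17:44606570-44606592: tcatattaaaaagccAAGCACAa
miR-218-5p, chr17:44605605-44605627: gtgtgtggtagcttgAAGCACAc
miR-137-3p, chr17:44604555-44604577: catggtatctgagagAGCAATAa
miR-217-5p, chr17:44604403-44604425: attgtttgctttttaATGCAGTa
miR-204-5p, chr17:44604116-44604138: tttactctgaacttcAAAGGGAc

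MiR-137-3p had 2 matches (AGCAATA), both followed by an A, at 1146 and 3343 nt from the stop codon. MiR-218-5p had 2 (AAGCACA), at 1328 and 2293 nt, the first of them followed by an A. MiR-204-5p had 2 (AAAGGGA), at 408 and 3782 nt, neither followed by an A. MiR-338-3p had 1 (ATGCTGG) at 1235 nt and miR-217-5p had 1 (ATGCAGT) at 3495 nt, both followed by an A. The match of miR-135a-5p (AAGCCAT) was not in this window. The matches at 1146, 1235 and 1328 nt, of 3 different miRNAs, follow one another, and their spacing was not tested.

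Seed matches of this length are not rare in a 3′ UTR of this size. Among 1542 windows of the same length from annotated 3′ UTRs, the match of miR-137-3p was in 25.9%, that of miR-217-5p in 29.6% and that of miR-338-3p in 30.6%. The match of miR-135a-5p was in 35.0%, that of miR-218-5p in 35.5% and that of miR-204-5p in 37.4%. A match followed by an A was less common. Its share of these windows ran from 7.46% for miR-217-5p to 16.9% for miR-204-5p, which has no such match in the Runx2 window. How often a window held 2 matches of the same miRNA was not tested. A match is a description of the letters and not a measured site, and the absence of a match says only that these letters are not in the window. The most abundant of the members with a searched sequence, Mir137 at 210.5 ± 11.3 CPM, has 2 matches, and so has Mir204 at 66.7 ± 4.80 CPM (SD, n = 2). MiR-218-5p, from Mir218-2 at 70.3 ± 4.54 CPM and Mir218-1 at 8.67 ± 1.63 CPM, has 2 as well. Mir338, at 52.3 ± 1.65 CPM, and Mir217, at 3.31 ± 0.59 CPM, have 1 each. The Mir135a genes, below 10 CPM, have none.

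**Figure D5:**
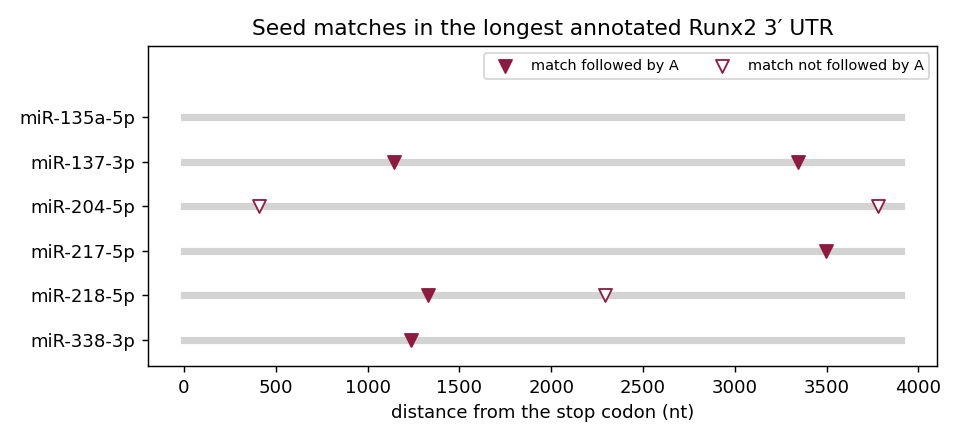
Distance in nt from the stop codon of each 7-base seed match along the longest annotated Runx2 3′ UTR (grey bar, 3904 nt), with 1 line per mature miRNA. Filled triangles mark the 5 matches followed by an A and open ones the other 3; the line of miR-135a-5p holds none.

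The members share little in position or composition. They lie on 7 chromosomes, with 3 of them, Mir217, Mir218-2 and Mir338, on chromosome 11, far from one another. Most lie in introns of a gene on the same strand; Mir34c has no such host in the annotation used, and Mir137 overlaps an exon. The GC content of their hairpins ran from 33.0% for Mir135a-2 to 56.1% for Mir338, with a median of 46.1%, against 51.0% over the 1894 listed genes with a hairpin sequence.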

How the data were processed

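Small RNA of 2 limb libraries was measured. The authors deposited raw read counts per miRNA gene, not normalized; the notes deposited with each sample name mm10 and GENCODE M4, and neither aligner nor counter is given in the sources used here. The files have no header. Of 3 count columns the first is the sum of the other 2, and the second, with nearly all counts, was read as the sense strand, from the values. Sense counts totalled 2953085 in replicate 1 and 3459176 in replicate 2. Lines of unmapped, multimapping, no-feature and ambiguous reads stayed out of library sizes.

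Symbols, loci and the Runx2 3′ UTR came from GENCODE M21 on mm10 (1894 of 1973 identifiers matched), and mature sequences from RefSeq. CPM was computed over all sense counts. Log2 ratios used a prior count of 0.5. Wilson intervals (95%), exact intervals and floors of 3 counts cover counting error only, since PCR copies are not independent molecules. TMM factors came from edgeR 4.0.16 and alternative size factors from DESeq2 1.42.0 in R 4.3.3; Python 3.11.15 with scipy 1.17.1 did the rest. No sign-flip test was run on pair ratios, because 2 libraries allow no exact p below 0.5. The computations were tried on simulated counts with known changes and counting error only, which does not cover the larger spread between these libraries. The members, lists, pairs and tests were chosen with earlier results of these data known. The text names all members, both genes of each pair, the Runx2 panel, relatives and neighbours, the 2 highest genes of other lists, markers at 0, and rank neighbours; other list members are named as examples.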

Additional observations from a re-analysis of the deposited data

How the results depend on the processing

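The members' share of sense counts, 0.358%, was 0.163% with all reads of the files as the denominator, by construction, and 0.350 to 0.365% with either replicate left out. The number of members detected, 6 at 10 CPM, was 10 at 1 CPM and 3 at 100 CPM. The count of genes called different between the libraries, 90, was 48 with an overdispersed test scaled by the median squared deviation and 12 with one scaled by the mean; the member called, Mir135b, was lost in the second, leaving 0 members. Of the 8 Runx2 seed matches, 5 were followed by an A and 0 lay in the shortest annotated 3′ UTR, which is 86 nt long. None of the pair ratios changed direction under any alternative run, and the 4 hairpins that share 20 nt also share 18 nt with no other member added. Ratios between the libraries cannot be computed with a replicate left out, and the pair of Mir338 and Mir3065 was not run because Mir3065 is not in the files' gene list. No paired analysis was possible because the series holds a single group. Below 10 CPM, member levels rest on 6 to 29 counts per library, and differences among these genes are limited by depth. For Mir218-1, Mir135a-1 and Mir135a-2 they are also limited by reads that may be in the multimapping line, which more depth would not assign.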
